A study of Mus musculus with 8 samples.

Results

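The genes described here encode the ion channels, exchangers, pumps, water channels, solute carriers and carbonic anhydrases with which the colon absorbs and secretes salt, water and nutrients. They are a list of 38 genes, given by name and then grouped by what they carry. A gene was measured where the array had a probe set annotated with its symbol alone, and 36 of the 38 were, out of 22180 genes tested. The probe sets of the zinc and manganese exporter Slc30a10 and of Slc51b, a subunit of the bile acid exporter, each carried a further gene symbol, so these 2 genes were left out. The data are array measurements of total RNA from the middle colon of 8 female mice of the line C57BL/6-Trim58tm2313Arte, aged 9 weeks, with 1 array per mouse. 4 mice were wild type (Trim58+/+) and 4 were knockouts (Trim58-/-) that lacked the gene in all cells. All 8 had acute colitis from dextran sodium sulfate (DSS), which damages the epithelial lining, given at 4% in the drinking water for 7 days and followed by 5 days of plain water. Tissue was taken on day 12, and untreated colon was not analysed here.

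As background, the colon takes up sodium and chloride together through sodium-hydrogen exchangers and chloride-bicarbonate exchangers that work side by side in the brush border, with carbonic anhydrase making the acid and base that they exchange. Toward the distal end the epithelial sodium channel adds an electrogenic route that aldosterone controls. Secretion runs the other way: the basolateral cotransporter loads chloride, potassium channels hold the membrane voltage, and Cftr lets chloride out into the lumen, with water following. Colitis is known to lower many of the absorptive transporters.

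A phosphate cotransporter gene, a sugar phosphate exchanger gene and a carbonic anhydrase gene fell in the knockout colon, and no member rose. The sodium-phosphate cotransporter gene Slc34a2 was 4.68-fold lower, the sugar phosphate exchanger gene Slc37a2 3.50-fold lower and the membrane-bound carbonic anhydrase gene Car4 1.80-fold lower. Under the 20 alternative settings of the fit each kept its direction, but Slc34a2 passed in 9, Slc37a2 in 7 and Car4 in 7. These 3 of 36 passed the threshold, a Benjamini-Hochberg adjusted p under 0.05 from limma over all 22180 genes, and 0 of 36 passed it upwards. Over all genes, 0.185% were called lower, 0.392% higher and 0.577% in either direction. At an unadjusted limma p under 0.05, 15 of the 36 were lower and 0 higher, against 8.1% and 6.22% of all genes. For 9 of the 36 every knockout value lay below every wild type value, and for 1, Slc26a6, above it. Over all genes these shares were 5.02% and 3.79%, or 8.81% in either direction. The log2 difference, knockout minus wild type, was below 0 for 30 of the 36, where 53.9% of all genes were below 0. Its median was -0.19 over the 36 and -0.01 over all genes. The list was drawn up with earlier results of these arrays known, so these counts describe the genes and are not independent evidence of a direction. In tissue RNA, fewer cells of a type and less RNA per cell cannot be told apart. Pancreatic enzyme RNA was high in most knockout arrays and the mean of posterior Hox genes was lower in knockout, as described further on. These differences between the groups cannot be separated from genotype with these arrays.

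**Figure D1:**
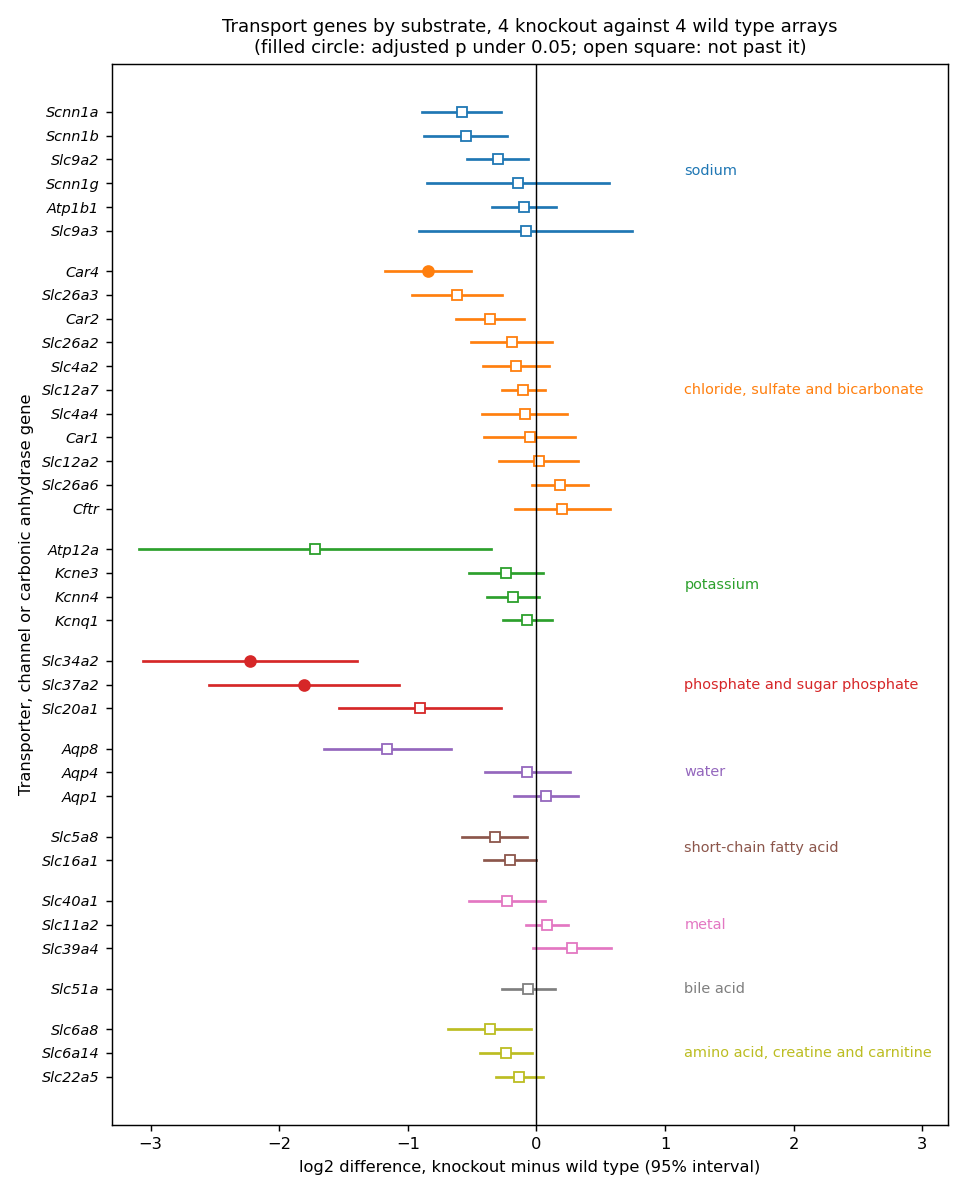
Log2 difference between 4 knockout and 4 wild type arrays (horizontal axis, 95% interval from limma) for each of the 36 transport genes, grouped and coloured by substrate. The filled circles of Slc34a2, Slc37a2 and Car4 mark an adjusted p under 0.05, and all 3 lie left of 0.

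Promoter sequence of the 3 called genes and of the water channel gene Aqp8, the member nearest to the threshold, is shown because these 4 had the smallest p among the members. Each window runs from 250 bases before to 50 bases after the annotated start, 5′ to 3′ on the gene's strand, from RefSeq on GRCm38.p6. Capitals mark matches to the motifs named after the sequences.
Slc34a2 (chr5:53049103-53049402, plus strand): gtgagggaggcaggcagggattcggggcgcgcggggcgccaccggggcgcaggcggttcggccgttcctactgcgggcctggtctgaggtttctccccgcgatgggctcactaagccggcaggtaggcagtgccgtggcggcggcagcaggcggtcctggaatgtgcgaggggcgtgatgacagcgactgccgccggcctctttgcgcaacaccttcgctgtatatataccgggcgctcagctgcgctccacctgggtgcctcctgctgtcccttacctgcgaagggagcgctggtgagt
Slc37a2 (chr9:37255689-37255988, minus strand): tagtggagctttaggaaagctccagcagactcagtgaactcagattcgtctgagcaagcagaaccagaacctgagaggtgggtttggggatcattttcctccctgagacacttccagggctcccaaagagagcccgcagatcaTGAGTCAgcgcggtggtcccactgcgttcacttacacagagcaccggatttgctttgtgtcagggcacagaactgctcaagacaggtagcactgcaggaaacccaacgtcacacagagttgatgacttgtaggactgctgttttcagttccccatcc
Car4 (chr11:84957504-84957803, plus strand): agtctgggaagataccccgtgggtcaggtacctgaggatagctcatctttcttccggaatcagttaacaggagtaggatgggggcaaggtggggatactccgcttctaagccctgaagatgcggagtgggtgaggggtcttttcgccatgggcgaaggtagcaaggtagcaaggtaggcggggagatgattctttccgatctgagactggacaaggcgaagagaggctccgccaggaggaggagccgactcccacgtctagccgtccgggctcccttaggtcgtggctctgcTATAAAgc
Aqp8 (chr7:123462044-123462343, plus strand): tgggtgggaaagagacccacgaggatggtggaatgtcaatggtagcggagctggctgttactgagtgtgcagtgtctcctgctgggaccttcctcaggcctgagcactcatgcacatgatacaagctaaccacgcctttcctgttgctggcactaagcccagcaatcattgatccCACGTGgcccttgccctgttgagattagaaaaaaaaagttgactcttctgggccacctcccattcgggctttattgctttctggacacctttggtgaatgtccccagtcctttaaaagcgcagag

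6 short motifs were searched on both strands, and no 2 matches overlapped in the 4 windows. The letters were TATAAA for the TATA box, CACGTG for the E-box, TTTATG for Cdx factors, AGATAA for GATA factors, TGANTCA for AP-1 and GTTAAT for a partial site of Hnf1. Slc34a2 held none of the 6. Slc37a2 held TGAGTCA at bases 144 to 150 of its window, Car4 held TATAAA at bases 293 to 298 and Aqp8 held CACGTG at bases 176 to 181. The Car4 match lies after the annotated start, so its letters alone do not make it a TATA box. Only the exact letters were counted, and the run tatatata before the start in the Slc34a2 window was not. The 4 windows thus shared no motif of the 6. Their GC content was 68.7% for Slc34a2, 52.7% for Slc37a2, 57.3% for Car4 and 52.0% for Aqp8, beside a median of 52.7% over all 32851 windows. Of the 38 genes, 25 were in the promoter table, with 30 windows. CACGTG was found in 8 of those 30 and in 7.2% of all windows, TGANTCA in 4 of 30 and in 7.8%, TATAAA in 3 of 30 and in 13.6%, TTTATG in 1 and in 11.9%, GTTAAT in 1 and in 7.1%, and AGATAA in 0 and in 11.2%. These are matches of letters and not measured binding.

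The phosphate and sugar phosphate carriers had the lowest knockout values relative to wild type of any substrate group. Slc34a2, which carries phosphate with sodium across the apical membrane, read 8.30, 9.70, 8.69 and 8.39 in wild type replicates 1 to 4 and 5.97, 5.87, 7.12 and 7.21 in knockout replicates 1 to 4 (log2 array signal). The groups were 1.08 apart at their nearest values, with knockout replicates 1 and 2 the lowest. The means were 8.77 ± 0.64 and 6.54 ± 0.72 (SD, n = 4 each), a log2 difference of -2.23 ± 0.38 (SE; 95% interval -3.06 to -1.39; limma adjusted p = 0.0320). Slc37a2, which exchanges glucose 6-phosphate for phosphate in the membrane of the endoplasmic reticulum, read 9.55, 10.36, 8.66 and 9.04 in wild type and 7.17, 7.28, 7.999 and 7.92 in knockout. All 4 knockout values were again below all wild type values, with a log2 difference of -1.81 ± 0.33 (SE; limma adjusted p = 0.0478). Slc20a1, a sodium-phosphate cotransporter found in most cells, read 9.78, 11.06, 9.78 and 9.90 in wild type and 9.13, 8.77, 9.45 and 9.56 in knockout. The groups did not overlap, but the log2 difference of -0.90 ± 0.28 (SE) did not pass (limma adjusted p = 0.171). Wild type replicate 2 was the highest array for all 3 genes. Without it, the log2 difference was -1.92 for Slc34a2 and -1.49 for Slc37a2, both with a limma adjusted p of 0.0842, and -0.59 for Slc20a1.

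Among the 11 genes of chloride, sulfate and bicarbonate transport, 1 fell, Car4, and 0 rose. Car4, the carbonic anhydrase anchored on the outer face of the apical membrane, read 11.49, 11.77, 11.59 and 11.37 in wild type and 10.55, 10.54, 11.18 and 10.57 in knockout. Knockout replicates 1, 2 and 4 lay within a narrow band and replicate 3 above them, just under the wild type range. The means were 11.56 ± 0.17 and 10.71 ± 0.31 (SD, n = 4 each), with a log2 difference of -0.84 ± 0.15 (SE; limma adjusted p = 0.0401). Car2, the cytosolic carbonic anhydrase, was at 11.51, 11.89, 11.56 and 11.48 in wild type and 11.44, 11.01, 11.29 and 11.25 in knockout. Its groups were separated by 0.04 only, with a log2 difference of -0.36 ± 0.12 (SE; limma adjusted p = 0.187). Car1, a second cytosolic form abundant in colon, overlapped between genotypes (log2 difference -0.05, 95% interval -0.41 to 0.30), with knockout replicate 3 at 11.47 under all wild type arrays.

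Slc26a3, the apical chloride-bicarbonate exchanger whose loss causes congenital chloride diarrhoea, read 12.16, 12.61, 11.89 and 11.87 in wild type and 11.37, 11.45, 11.70 and 11.54 in knockout. The groups did not overlap, and the log2 difference of -0.62 ± 0.16 (SE) corresponded to a 1.53-fold lower mean that did not pass (limma adjusted p = 0.112). Slc26a6, a related apical exchanger, was the single member with all knockout values above the wild type values. It read 6.09, 6.08, 6.09 and 5.81 in wild type and 6.19, 6.39, 6.10 and 6.13 in knockout, which differ by 0.18 on average (limma adjusted p = 0.432). Wild type replicate 4 was the lowest array and knockout replicate 2 the highest, and the other arrays lay close together. The sulfate transporter gene Slc26a2 (log2 difference -0.19), the basolateral anion exchanger gene Slc4a2 (-0.16), the sodium-bicarbonate cotransporter gene Slc4a4 (-0.09) and the potassium-chloride cotransporter gene Slc12a7 (-0.10) overlapped between genotypes, with limma adjusted p between 0.596 and 0.842.

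The genes of the chloride secretion route overlapped between genotypes. Cftr, the chloride channel, read 9.27, 9.62, 9.57 and 9.06 in wild type and 9.95, 9.64, 9.47 and 9.26 in knockout (log2 difference 0.20, 95% interval -0.16 to 0.57). Slc12a2, the cotransporter that loads chloride from the blood side, read 11.36, 11.09, 11.41 and 10.81 and 11.33, 11.05, 11.31 and 11.04 (log2 difference 0.02, 95% interval -0.29 to 0.32). The sign of the Slc12a2 difference changed under repeated quantile normalization, with array weights and under other settings, so it has no direction here. The potassium channel genes Kcnn4, Kcnq1 and Kcne3, whose products keep the voltage that drives secretion, had log2 differences of -0.19, -0.07 and -0.24. Their 95% intervals ran from -0.39 to 0.02, from -0.26 to 0.12 and from -0.52 to 0.05. Of these 5 genes 0 were called, 0 had an unadjusted limma p under 0.05, and the median log2 difference was -0.07. For the 7 genes of apical salt absorption, Slc9a2, Slc9a3, Slc26a3, Slc26a6, Scnn1a, Scnn1b and Scnn1g, 0 were called, 4 had an unadjusted p under 0.05, all lower, and the median was -0.30. Over all genes, 8.1% were lower at that unadjusted p. The difference between the 2 routes was not tested.

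The 6 sodium transport genes all had a log2 difference below 0, with 0 called. Scnn1a, the pore-forming alpha subunit of the epithelial sodium channel, read 10.25, 10.35, 10.08 and 10.04 in wild type and 9.69, 9.18, 9.82 and 9.71 in knockout. Its groups did not overlap, and the log2 difference was -0.58 ± 0.14 (SE; limma adjusted p = 0.0968). Scnn1b, the beta subunit, read 7.79, 7.76, 7.81 and 7.57 and 7.43, 6.73, 7.39 and 7.17, likewise without overlap (log2 difference -0.55 ± 0.15, SE; limma adjusted p = 0.121). Knockout replicate 2 was the lowest array for both subunits. Scnn1g, the gamma subunit, had overlapping groups. It read 8.44, 7.56, 7.13 and 7.13 in wild type and 6.95, 6.99, 7.91 and 7.84 in knockout, so that wild type replicate 1 was the highest and knockout replicates 3 and 4 lay above 3 of the 4 wild type arrays (log2 difference -0.14, 95% interval -0.85 to 0.56). The sign of the Scnn1g difference changed without wild type replicate 1, without knockout replicate 1 or 2, in knockout replicate 3 alone and with the pancreatic or posterior colon covariate described further on.

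The sodium-hydrogen exchanger genes differed in spread. Slc9a2 read 9.57, 9.98, 9.75 and 9.70 in wild type and 9.66, 9.38, 9.33 and 9.41 in knockout, with knockout replicate 1 inside the wild type range (log2 difference -0.30, limma adjusted p = 0.224). Slc9a3, the main absorptive exchanger of the gut, read 9.37, 9.69, 9.47 and 9.22 in wild type and 10.49, 9.22, 9.51 and 8.20 in knockout. The knockout arrays held both the highest value, in replicate 1, and the lowest, in replicate 4, and their SD of 0.94 exceeded the wild type SD of 0.20, so the difference of -0.09 has no settled direction. Atp1b1, the beta subunit of the sodium-potassium pump, overlapped between genotypes (log2 difference -0.10, 95% interval -0.34 to 0.15). Among the potassium genes, Atp12a, the proton-potassium pump of the distal colon, had the widest range of the list. It read 11.05, 11.42, 10.74 and 9.98 in wild type and 8.32, 7.41, 10.65 and 9.93 in knockout. Knockout replicates 1 and 2 were far below every other array, while replicate 3 lay inside the wild type range and replicate 4 just under it. The log2 difference of -1.72 ± 0.62 (SE) did not pass (limma adjusted p = 0.229).

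**Figure D2:**
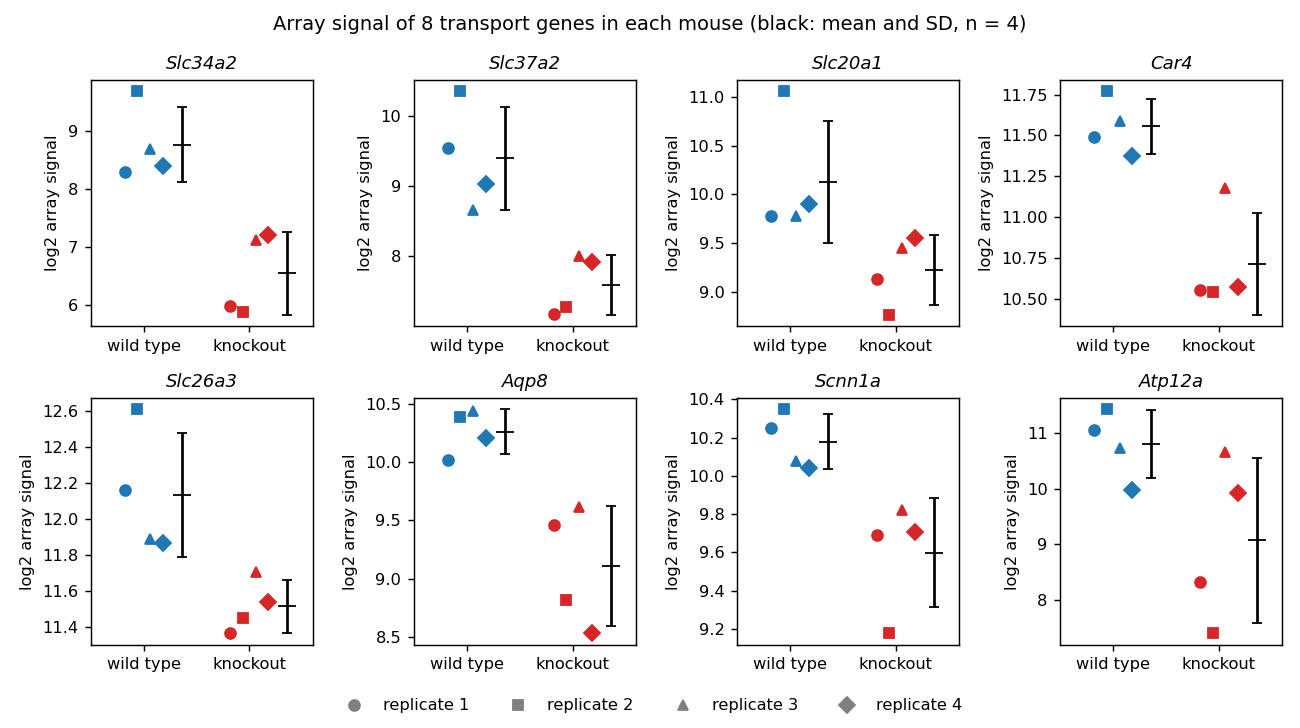
Log2 array signal of 8 transport genes in each mouse, wild type in blue and knockout in red, with a marker shape for each replicate number and the mean and SD in black (n = 4); each panel has its own vertical scale, which does not start at 0. The groups are separate for every gene except Atp12a, where knockout replicates 1 and 2 read 8.32 and 7.41 and the other 2 knockouts 10.65 and 9.93.

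Of the 3 water channels, 1 had groups that did not overlap, where 8.81% of all genes had none in either direction. Aqp8, a water channel of surface colonocytes, read 10.02, 10.39, 10.44 and 10.21 in wild type and 9.46, 8.82, 9.61 and 8.53 in knockout, with the nearest values 0.41 apart. Its log2 difference was -1.16 ± 0.22 (SE), or 2.23-fold lower, and missed the threshold by a small margin (limma adjusted p = 0.0543). Aqp8 passed in only 2 of the 20 alternatives. These were the fits without the third of genes with the lowest mean (limma adjusted p = 0.0425) and without knockout replicate 3 (adjusted p = 0.0170). Over all fits that left out 1 array, its limma adjusted p ran up to 0.180. Aqp4, a basolateral water channel, overlapped between genotypes (log2 difference -0.07, 95% interval -0.40 to 0.26), with knockout replicate 4 at 10.58 under all other arrays. Aqp1, known from endothelium and erythrocytes, also overlapped (log2 difference 0.07, 95% interval -0.18 to 0.33).

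The 2 transporters of short-chain fatty acids, the bacterial products that feed colonocytes, had lower means without a call. Slc5a8, which takes them up with sodium, read 10.89, 11.05, 11.12 and 10.80 in wild type and 10.44, 10.67, 10.90 and 10.57 in knockout (log2 difference -0.32, limma adjusted p = 0.220). Slc16a1, the monocarboxylate transporter, differed by -0.21 (limma adjusted p = 0.341). Both pairs of groups overlapped. For amino acids and related solutes, Slc6a14, a broad amino acid importer of the apical membrane, differed by -0.24, the creatine transporter gene Slc6a8 by -0.36 and the carnitine transporter gene Slc22a5 by -0.13, all overlapping and uncalled (limma adjusted p between 0.263 and 0.518).

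Of the 3 measured metal transport genes, 2 had differences above 0 and 0 were called. Slc39a4, the apical zinc importer, had the largest positive difference of the 36. It read 9.25, 9.08, 9.57 and 9.28 in wild type and 9.27, 9.70, 9.81 and 9.51 in knockout (log2 difference 0.28, limma adjusted p = 0.395), and the groups overlapped. Slc11a2, the apical iron importer, differed by 0.08 (95% interval -0.08 to 0.24) and Slc40a1, the iron exporter that macrophages also use, by -0.23 (95% interval -0.52 to 0.07). The bile acid exporter subunit gene Slc51a had the lowest signal of the list, 4.80 ± 0.14 in wild type and 4.74 ± 0.10 in knockout (SD, n = 4 each). That is under the 95th percentile of 1105 olfactory receptor genes (5.53), used here as a guide to background. A difference in this gene may therefore not have been measurable here.

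The 36 genes did not vary alike between mice. Set against the wild type mean of each gene, the median deviation was -0.25, -0.26, -0.13 and -0.22 in knockout replicates 1 to 4, and 0.01, 0.11, 0.02 and -0.18 in wild type replicates 1 to 4 (log2). By this median knockout replicate 3 was the knockout nearest to wild type, and wild type replicate 4 lay between the knockouts. Below the lowest wild type value lay 19, 21, 13 and 20 of the 36 genes in knockout replicates 1 to 4, where 23.4%, 26.9%, 21.5% and 21.9% of all genes lay. Above the highest wild type value lay 5, 3, 3 and 3 of the 36, and 19.1%, 21.6%, 18.2% and 18.2% of all genes. In the 9 genes with no overlap and lower knockout values, the shift of knockout replicate 3 was smaller than the mean shift of the other 3 knockouts in all 9. It was the single knockout closest to wild type in 5 of the 9. Knockout replicate 4 was closest for Slc34a2 and Slc20a1, and knockout replicate 1 for Car2 and Scnn1b. For Slc34a2 the shift of knockout replicate 3 was -1.65 against -2.42, for Slc37a2 -1.40 against -1.94, for Car4 -0.38 against -1.0 and for Aqp8 -0.65 against -1.33.

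**Figure D3:**
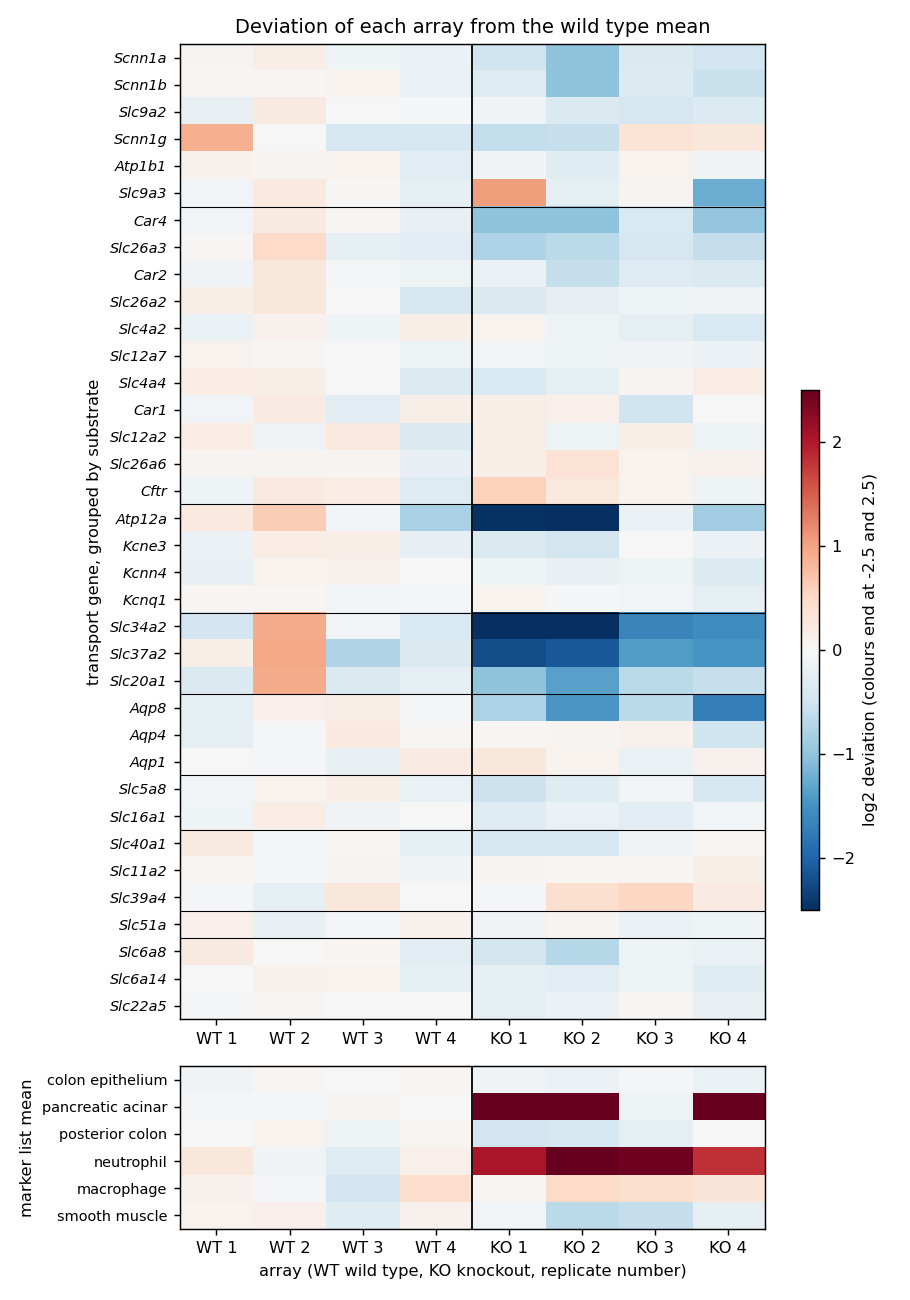
Deviation of each array from the wild type mean of the gene (log2, blue lower and red higher) for the 36 transport genes by substrate, above the same quantity for the mean of 6 marker lists. Slc34a2, Slc37a2 and Aqp8 are blue in all 4 knockouts, Atp12a is darkest in knockout replicates 1 and 2, and the neutrophil list is red in all 4 knockouts while the pancreatic list is red in replicates 1, 2 and 4.

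Marker lists of other cells moved between the same arrays. Of 14 colon epithelium markers, 13 were measured, each with a mean above all olfactory receptor genes, and 0 were called. Their mean was 10.78 to 10.92 in wild type and 10.70 to 10.84 in knockout. Every measured marker of this list but Cdx2 had a log2 difference below 0. For Epcam (-0.12), Krt19 (-0.14) and Cldn3 (-0.38) all knockout values lay below all wild type values. Over all genes, 5.02% had that pattern. Cdx2 (0.19) read 7.45 to 8.69 in wild type, so the overlap of the list means does not show an unchanged epithelial level. The mean of 10 measured surface colonocyte markers was 10.94 to 11.09 in wild type and 10.87 to 11.10 in knockout, also with 0 called. This list held differences in both directions. Ceacam20 (-0.35) and Mep1a (-0.54) had all knockout values below wild type, and Dhrs9 (0.535) had all of them above. Its mean therefore does not show a steady level of these cells. The mean of 10 neutrophil markers was 5.19 to 5.80 in wild type and 7.34 to 8.40 in knockout, with 9 called higher. The mean of 14 measured of 18 pancreatic acinar markers was 10.61, 11.55 and 11.27 in knockout replicates 1, 2 and 4, but 6.13 in knockout replicate 3 and 6.21 to 6.31 in wild type. The mean of 8 measured of 9 posterior colon Hox genes was 6.48 to 6.69 in wild type and 6.14, 6.16, 6.39 and 6.61 in knockout replicates 1 to 4, so that the 2 arrays lowest for Slc34a2, Slc37a2 and Atp12a were also the lowest for this list. The mean of knockout replicate 4 was raised by Hoxd13, at 7.855 there and 6.29 to 6.96 in wild type. All 8 Hox genes had a log2 difference below 0. Hoxa13 (-0.16) and Hoxb13 (-0.91) had every knockout value, replicate 4 included, below every wild type value. The smooth muscle mean was 10.22 to 10.64 in wild type and 9.86 to 10.45 in knockout, the macrophage mean 7.55 to 8.47 and 8.06 to 8.50. The endothelial mean was 7.16 to 7.51 and 7.28 to 7.67, the enteric glia mean 5.49 to 5.68 and 5.39 to 5.64, and the mean of the 2 measured of 8 erythroid markers 4.60 to 4.74 and 4.65 to 4.83. The part of neutrophils in the transport differences was not tested. Trim58 itself had a log2 difference of -0.07 (exact two-sided permutation p = 0.6 over 70 assignments), so its probe set does not check the genotype labels. Its mean was 5.12 in wild type and 5.05 in knockout, both under the olfactory 95th percentile of 5.53. A loss of its RNA may therefore not have been measurable here. The labels do not say which exons were deleted.

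The size of the differences moved when these lists entered the fit. With each array's pancreatic mean as a covariate the log2 difference was -1.70 for Slc34a2, -1.43 for Slc37a2, -0.41 for Car4, -0.61 for Aqp8 and -0.20 for Atp12a. With the posterior colon mean it was -1.38, -1.15, -0.76, -1.43 and -0.46 for the same genes, and with the colon epithelium mean -1.86, -1.74, -0.60, -0.61 and -1.38. In each of these 3 fits 0 of the 36 genes and 2 of 22180 passed the adjusted threshold. Without a covariate, 87 of all genes were called higher and 41 lower. The list means themselves differed between the genotypes, so with 8 arrays such fits generally have less power to call any gene. The loss of calls therefore does not show how much of a transport difference goes with a list. Knockout replicate 3 alone against the 4 wild type arrays, with its spread taken to be that of the wild type, gave -1.65, -1.40, -0.38, -0.65 and -0.15, with 0 of 36 called. Single arrays also ended calls. The count of 3 lower genes was 1 without wild type replicate 1, 1 without wild type replicate 3, 1 without knockout replicate 4 and 4 without knockout replicate 3. It was 0 without wild type replicate 2 or 4 and without knockout replicate 1 or 2. Slc34a2 passed in 3 of the 8 fits that left out 1 array, Slc37a2 in 2 and Car4 in 1, and in all 8 the direction of each was unchanged. With all arrays and no covariate, the mean-variance trend left Slc34a2 at an adjusted p of 0.0726 and Slc37a2 at 0.0792, equal array medians left Slc37a2 at 0.0531, and repeated quantile normalization left Car4 at 0.0524 (limma).

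**Figure D4:**
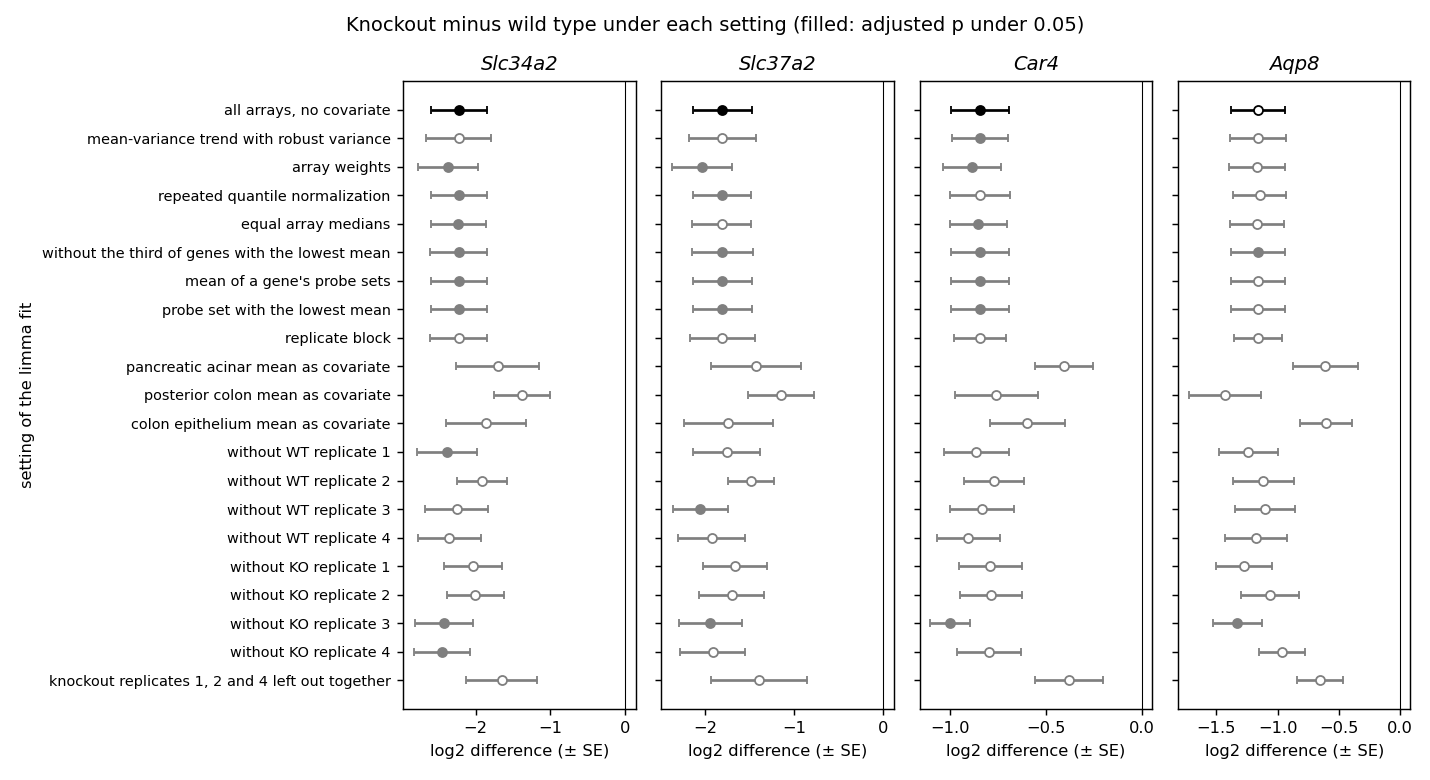
Log2 difference between knockout and wild type with its SE for Slc34a2, Slc37a2, Car4 and Aqp8 (panels, each with its own horizontal scale) under each setting of the limma fit (rows); filled points have an adjusted p under 0.05. Every point lies left of 0, and the Car4 value runs from -1.0 without knockout replicate 3 to -0.38 with knockout replicates 1, 2 and 4 left out.

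A wider list of 122 related transport and control genes, of which 113 were measured, held differences in both directions. 1 was called higher and 0 lower, beside 0.392% and 0.185% of all genes. At an unadjusted limma p under 0.05, 14 were higher and 20 lower, beside 6.22% and 8.1% of all genes. The log2 difference was below 0 for 61 of the 113, or 54%, which is near the 53.9% of all genes. Its median was -0.03. The called gene was Slc7a11, the cystine-glutamate exchanger that supplies cysteine for glutathione. It read 5.61, 5.32, 5.20 and 4.89 in wild type and 6.45, 7.15, 6.85 and 6.17 in knockout, a log2 difference of 1.4 ± 0.21 (SE; limma adjusted p = 0.0206), with the groups apart. Its call ended under 9 of 20 alternatives, among them the 3 covariate fits. Slc7a11 had 2 probe sets, and the genotypes differed by 0.095 in the dimmer one (limma adjusted p = 0.664) and by 0.75 in the mean of both (adjusted p = 0.0294). The mean signal of the dimmer one, 2.39, was under the olfactory 95th percentile of 5.53, and that of the brighter one was 5.96. Each of the 36 members had a single probe set. The next positive differences by p were Hsd11b1, an enzyme that activates glucocorticoids (0.52, limma adjusted p = 0.101), and Slc39a14, a zinc and iron importer that inflammation is known to induce (0.52, adjusted p = 0.109). The negative differences with the smallest p were 3 that did not pass. Ano1, a calcium-activated chloride channel that the pacemaker cells of the gut muscle also express, read 10.56, 10.66, 10.36 and 10.34 in wild type and 9.48, 9.34, 9.79 and 10.12 in knockout (-0.80, adjusted p = 0.0625). Nr3c2, the mineralocorticoid receptor through which aldosterone controls the epithelial sodium channel, read 8.81, 8.85, 8.76 and 8.49 and 8.30, 8.16, 8.32 and 8.31 (-0.46, adjusted p = 0.0675) from the brighter of its 2 probe sets. The dimmer one, with a mean signal of 4.12, gave -0.068 and the mean of both -0.26. Abcg2, an apical exporter of drugs and urate, differed by -0.36 (adjusted p = 0.0760). None of these 3 had overlapping groups in the probe set used.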

How the data were processed

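RNA was measured on 1 Affymetrix whole-transcript array per mouse in 4 wild type and 4 Trim58 knockout mice, which the labels number as separate animals. The authors deposited log2 values. They come from RMA in Affymetrix Expression Console 1.4, per the submitters' processing notes. RMA subtracts background, gives the arrays a common distribution and compresses differences of dim genes. The sources used here name no probe set filter and no scan date. No further normalization was applied, and array medians lay between 5.73 and 5.83. Arrays have no sequencing depth, and their number limits the precision.

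Of 41345 probe sets, 23521 carried 1 gene symbol in the platform annotation, 1814 several and 16010 none. By Entrez identifier, 23328 of the single-symbol probe sets matched the RefSeq gene table (GRCm38.p6), which gave current symbols. The probe set with the highest mean stood for each of 22180 genes. Knockout was set against wild type in limma 3.58.1 (R 4.3.3, lmFit with genotype alone, then eBayes), with Benjamini-Hochberg adjustment over all genes and a threshold of 0.05. In simulated data for this comparison with 22180 genes, a log2 shift of 0.5 was recovered in 52% of 50 genes, a shift of 1 in 88% and a shift of 2 in 100%. The shifted genes were drawn at random from all genes, with independent noise. The median SD over all arrays, genotype difference included, was 0.155 for all genes and 0.235 for the members. Recovery may thus be lower for the members. The genes named are all 36 measured members, Trim58, every called related gene and the 3 related genes with the smallest p in each direction. Members, lists, motifs and tests were chosen with earlier results of these data known. The 20 alternatives covered the variance model, array weights, normalization, dim genes, probe set choice, a replicate block, 3 covariates and left-out arrays.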

Additional observations from a re-analysis of the deposited data

Results flagged for a closer look

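In 5 transport genes and 1 related gene, 1 array lay apart from the other 3 of its group. This was looked for in 84 groups of 4 arrays (42 genes), where chance gives about 1 in 20. Slc20a1 was at 11.06 in wild type replicate 2 and at most 9.90 in the other wild type arrays. Car4 was at 11.18 in knockout replicate 3 and at most 10.58 in the other knockouts, the arrays with the pancreatic signal. Its difference without knockout replicate 3 was -1.0. Wild type replicate 4 was the lowest of its group for Slc26a6, at 5.81 with the next value at 6.08, and for Atp1b1, at 12.30 with the next at 12.63. Aqp4 was at 10.58 in knockout replicate 4, with the next value at 11.13. Nr3c2 was at 8.16 in knockout replicate 2, with the next at 8.30.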

How the results depend on the processing

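Of 719 values of the 36 genes under the alternatives, 642 kept their direction and their side of the threshold, 37 lost their call in the same direction, 2 passed it newly and 38 changed sign. 24 genes never changed sign, Slc34a2, Slc37a2, Car4 and Aqp8 among them, and 12 did at least once. For the same numbers in both genotypes, the deviations of paired arrays correlated at -0.14, -0.16, 0.04 and 0.05. These values show no pairing by number, but with 4 arrays per group they cannot exclude one. With the replicate block, 56 genes were higher and 8 lower and 0 of the 36 were lower. The mean-variance trend gave 64 lower genes, 1 lower member and 2 lower related genes, array weights 69 lower and 2 lower related, and leaving out dim genes 80 lower and 3 lower related. The probe set with the lowest mean left 0 related genes higher. Each covariate (pancreatic, posterior colon, epithelium) left 2 genes higher and 0 lower, with 0 members lower and 0 related genes higher; knockout replicate 3 alone left 14 higher, 0 lower, 0 members and 0 related. Without 1 array, 24 to 172 genes were higher, 1 to 80 lower, 0 to 4 members lower, 0 to 1 related genes higher and 0 to 1 lower, and the median over the members ran from -0.25 to -0.15. 0 members were called higher under every alternative run. Signs changed as follows. Slc12a2 was -0.0041 with array weights, -0.009 with quantile normalization, -0.15 with the posterior covariate and -0.023 with the epithelial one. With the pancreatic covariate Slc9a3 was 0.21, Scnn1g 0.31, Atp1b1 0.094, Slc4a4 0.042, Aqp1 -0.13, Aqp4 0.11 and Slc22a5 0.021. With the posterior covariate Scnn1g was 0.40, Slc4a4 0.16 and Cftr -0.13. With the epithelial covariate Slc9a3 was 0.46, Slc4a2 0.021 and Aqp4 0.22. With knockout replicate 3 alone Slc9a3 was 0.068, Scnn1g 0.35, Atp1b1 0.088, Slc4a4 0.072, Kcne3 0.007, Aqp1 -0.16, Aqp4 0.11 and Slc22a5 0.042. Without 1 array, Scnn1g ran from -0.31 to 0.15, Slc12a2 from -0.10 to 0.096, Car1 from -0.15 to 0.092, Aqp4 from -0.15 to 0.071, Slc4a4 from -0.20 to 0.0044, Slc9a3 from -0.46 to 0.30 and Trim58 from -0.18 to 0.0029. The cause was not tested.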
